A study of Mus musculus with 8 samples.

Results

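Taste and trace amine receptor genes were taken as the probes whose gene name begins with Tas1r, Tas2r or Taar. The rule gave 55 of the 55669 probes used, for 52 of 34963 gene names: 3 Tas1r genes, 35 Tas2r genes and 14 Taar genes. Expression was measured on 8 one-colour arrays of mouse cells of mixed C57BL/6 and 129 background. Medullary thymic epithelial cells (mTEC), the thymic cells that express genes of many organs ectopically and show their products to developing T cells, gave 3 Cdx1+/+ and 3 Cdx1-/- samples. Each was a pool of 4 to 6 thymi, sorted as Epcam+ UEA1+ CD45- cells that excluded Fluorogold, with high CD80 and high MHC class II staining. Small intestine epithelial cells (SIEC), sorted as Epcam+ CD45- cells that excluded Fluorogold, gave 1 sample labelled Cdx1+/+ and 1 labelled Cdx1-/-, each a pool of 3 mice. Cdx1 encodes a caudal-type homeobox transcription factor of intestinal epithelium, and the series asks how its loss alters ectopic expression in mTEC. The ages of the mice and the part of Cdx1 that the allele lacks are not given in the sources used here.

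Tas1r genes encode the subunits of the sweet and umami receptors, in which Tas1r3 pairs with Tas1r2 or with Tas1r1. Tas2r genes encode bitter receptors, mostly in dense clusters of intronless paralogs, and taste receptors signal through the G protein gustducin, phospholipase C and the cation channel Trpm5. Tuft cells, which are found in both intestine and thymic medulla, use the same cascade. Most trace amine receptors, Taar1 aside, detect volatile amines in olfactory neurons and couple to the olfactory G protein.

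Most receptors are read by a single 60-base probe, so each result below rests on 1 sequence. The probes of the bitter and trace amine receptors that the comparisons turn on are shown 5′ to 3′, with capitals marking a final stop codon that closes a frame open over the whole probe.
Tas2r105: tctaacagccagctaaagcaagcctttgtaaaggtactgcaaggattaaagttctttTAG
Tas2r109: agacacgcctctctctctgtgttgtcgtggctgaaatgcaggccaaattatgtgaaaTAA
Tas2r113: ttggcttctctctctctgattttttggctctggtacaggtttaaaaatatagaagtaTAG
Tas2r117: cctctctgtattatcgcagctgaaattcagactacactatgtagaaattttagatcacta
Tas2r131: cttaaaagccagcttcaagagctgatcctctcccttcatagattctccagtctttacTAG
Tas2r143: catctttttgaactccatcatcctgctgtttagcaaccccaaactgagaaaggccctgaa
Taar5: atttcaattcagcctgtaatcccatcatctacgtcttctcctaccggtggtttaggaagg
Taar7d: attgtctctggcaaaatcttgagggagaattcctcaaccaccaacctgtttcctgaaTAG
No member probe had a 20-base run in common with the probe of another gene on the array, except the Taar8a and Taar7a probes. The marked stop codon puts the probes of Tas2r105, Tas2r109, Tas2r113, Tas2r131 and Taar7d at the 3' end of a reading frame. Cross-hybridisation between paralogs over shorter or imperfect matches was not tested.

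Levels below are log2 intensities minus the 75th percentile value of each array, and a probe counts as detected where the scanner software flagged it well above background. Between 56.9% and 62.0% of all probes were detected on the mTEC arrays and 45.1% and 43.4% on the SIEC arrays, with no saturated spot. The Cdx1 probe was detected on all 8 arrays and fell by 0.99 in Cdx1-/- mTEC (limma, adjusted p = 0.00373), though whether it lies in the deleted part is not known here. In SIEC it read 4.87 under the Cdx1+/+ label and 6.48 under the Cdx1-/- label, against the direction in mTEC, so SIEC genotypes are given by label. Of 12 mTEC markers 11 were higher in mTEC, and all 12 intestinal markers were lower. Arrays sat on 2 slides: slide 1 held the 3 Cdx1+/+ mTEC arrays and Cdx1-/- replicates 2 and 3, and slide 2 held Cdx1-/- mTEC replicate 1 and both SIEC arrays.

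Most receptor genes were not detected in either tissue. Of the 55 probes, 39 were detected on no array, and 13 of those had a signal no different from background on all 8, where the software had put a substitute value. The other 16 probes stand for 16 genes: all 3 Tas1r genes, 9 of 35 Tas2r genes and 4 of 14 Taar genes. On the mTEC arrays 7 to 11 member probes were detected, or 12.7% to 20% of the 55. The SIEC arrays had 5 (Cdx1+/+) and 3 (Cdx1-/-), or 9.09% and 5.45%.

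**Figure D1:**
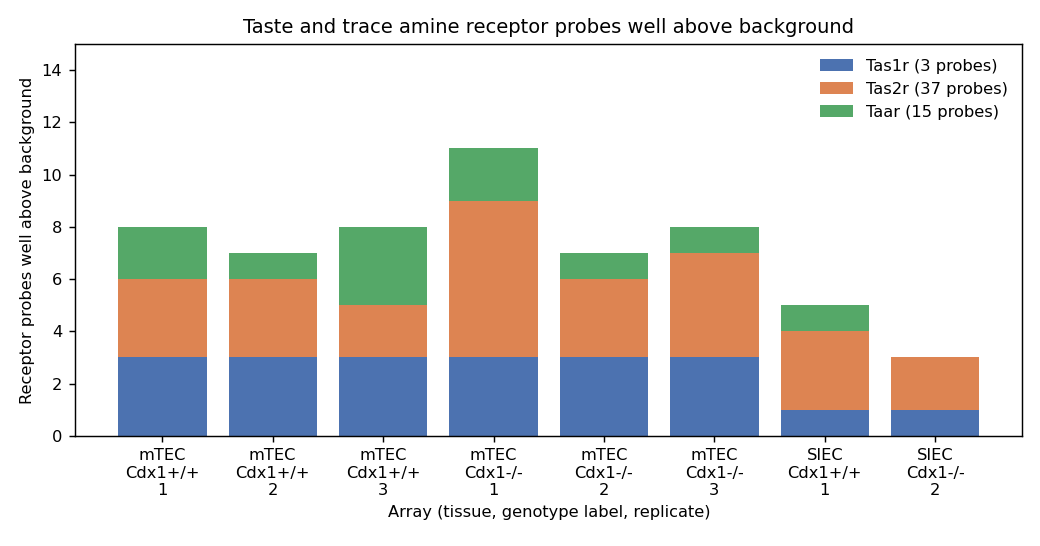
Member probes well above background on each array, stacked by family (y axis: number of probes; x axis: array). The 6 mTEC arrays have 7 to 11 and the SIEC arrays have 5 and 3, and all 3 Tas1r probes are detected on every mTEC array.

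The number of detected receptors did not separate the genotypes. The Cdx1+/+ mTEC arrays had 8, 7 and 8 detected member probes and the Cdx1-/- arrays 11, 7 and 8, a difference of means of 1 (exact permutation test, two-sided, p = 0.9, where the smallest possible p is 0.1). The array with 11 is replicate 1, on slide 2, and within slide 1 the difference was −0.167. Between tissues the mean was 8.17 ± 1.47 (SD, n = 6) in mTEC and 4 in the pair of SIEC arrays, and the ranges did not overlap (exact permutation test, two-sided, p = 0.0357, the smallest this design allows). Among all probes, the mTEC arrays also had more detected, by 14.2 percentage points, with the same exact permutation p of 0.0357. Taken as a share of all detected probes, the tissue difference for the receptors had an exact permutation p of 0.0714.

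The genes detected on all 6 mTEC arrays were Tas1r1, Tas1r2, Tas1r3, Tas2r109, Tas2r113 and Taar5. In all, 11 genes were detected in mTEC alone, 2 (Tas2r131 and Tas2r143) in SIEC alone, and 3 (Tas1r3, Tas2r109 and Taar5) in both. Of the 16, 5 were detected on 1 array only. The plot of levels by array shows the 16.

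**Figure D2:**
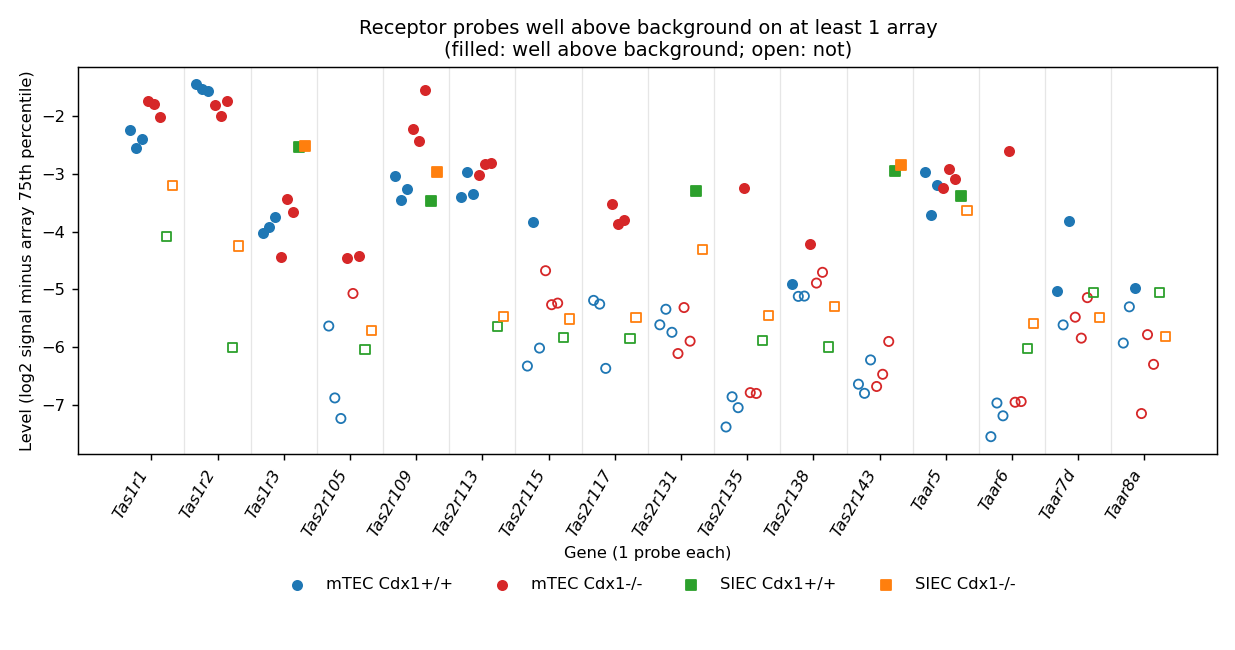
Level of the 16 receptor probes detected on at least 1 array (y axis: log2 signal minus the 75th percentile of the array), 1 point per array, filled where the probe is well above background and open where it is not. Tas1r2 lies between −1.99 and −1.44 in mTEC, and the single filled points of Taar6 and Tas2r135 are both Cdx1-/- mTEC replicate 1.

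The comparison of Cdx1-/- with Cdx1+/+ mTEC asks which receptors changed with the genotype. Only 9 of the 52 genes could be tested, having been detected on at least 2 arrays of 1 genotype. Of these 9, 4 were higher in Cdx1-/- cells (Tas2r117, Tas2r105, Tas2r109 and Tas1r1), none was lower and 5 did not pass (limma, adjusted p threshold 0.05 over 24338 genes); 6 of the 9 had an unadjusted p under 0.05. Over all genes tested 6.28% were called higher and 6.61% lower, 12.9% in all. Tas2r117 and Tas2r105 entered the test only through the Cdx1-/- arrays and Taar7d only through the Cdx1+/+ arrays, so nothing is read from the count of 4 against that background. Over all genes tested 1.92% were called and differed by at least 2-fold in the fit. Among the receptors called, Tas2r109 did so with detection in both genotypes, while Tas2r117 and Tas2r105, undetected in Cdx1+/+ cells, are bounded at 2.38-fold and 1.31-fold. In pools of sorted cells, more cells of a type and more RNA per cell cannot be told apart. Only Tas2r117 still passed without Cdx1+/+ replicate 2 or without Cdx1+/+ replicate 3, Tas2r117 and Tas2r109 passed without Cdx1-/- replicate 1, and Tas1r1 was also lost without Cdx1-/- replicate 2.

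Among the sweet and umami receptor subunits, Tas1r1 rose and the other two subunits did not pass. Tas1r1, which gives the umami receptor its ligand specificity, is read at chr4:151402193-151402252 (mm9, minus strand). Its level was −2.23, −2.55 and −2.40 in Cdx1+/+ mTEC and −1.74, −1.79 and −2.01 in Cdx1-/- mTEC. The ranges did not overlap, and the difference was 0.55 (SE 0.12, 1.46-fold; limma, adjusted p = 0.0338). With the slide as a block the difference was 0.49 and no longer passed (limma, adjusted p = 0.0839).

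Tas1r2, the sweet receptor subunit (chr4:139226073-139226132, plus strand), read −1.44, −1.52 and −1.57 in Cdx1+/+ and −1.81, −1.99 and −1.74 in Cdx1-/- mTEC. All 3 Cdx1-/- arrays lay below all Cdx1+/+ arrays, yet the difference of −0.34 (SE 0.10) did not pass (limma, adjusted p = 0.0701). Non-overlapping arrays were seen for 38.0% of all genes tested and for 5 of the 9 receptors. Tas1r3, the subunit that both receptors share (chr4:155234018-155234077, minus strand), read −4.01, −3.92 and −3.75 against −4.43, −3.43 and −3.65, with a difference of 0.06 (SE 0.25; limma, adjusted p = 0.898). The genotypes overlapped for this gene, with Cdx1-/- replicate 1 the lowest of the 6 arrays.

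The bitter receptor genes Tas2r117, Tas2r109 and Tas2r105 were called higher in Cdx1-/- mTEC. Tas2r117 and Tas2r105 were tested only because the Cdx1-/- arrays detected them, so their p-values are no independent evidence of a rise. Tas2r117 (chr6:132753822-132753881, plus strand) read −5.19, −5.25 and −6.37 in Cdx1+/+ mTEC, where it was detected on no array, and −3.52, −3.87 and −3.80 in Cdx1-/- mTEC, where it was detected on all 3. The fitted difference was 1.87 (SE 0.32; limma, adjusted p = 0.0154). Measured against the lowest detected signal of each Cdx1+/+ array, Tas2r117 was at least 2.38-fold higher. With the slide as a block it was the only receptor that still passed (limma, adjusted p = 0.0463).

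Tas2r109 (chr6:132930033-132930092, minus strand) was detected on all 8 arrays. In mTEC it read −3.04, −3.45 and −3.25 in Cdx1+/+ and −2.22, −2.43 and −1.55 in Cdx1-/- cells, so that every Cdx1-/- array was higher. The difference was 1.18 (SE 0.24, 2.27-fold; limma, adjusted p = 0.0257), 1.26 with the slide as a block (adjusted p = 0.0515).

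Tas2r105, whose product is the cycloheximide receptor (chr6:131636579-131636638, minus strand), read −5.63, −6.88 and −7.24 in Cdx1+/+ and −4.45, −5.07 and −4.42 in Cdx1-/- mTEC. It was detected on Cdx1-/- replicates 1 and 3 alone, and 2 of the 3 Cdx1+/+ values are substitutes. The fitted difference of 1.94 (SE 0.42; limma, adjusted p = 0.0313) therefore rests on background, and the bound is at least 1.31-fold higher. With normexp background correction the fitted differences shrank to 0.38 for Tas2r117 (limma, adjusted p = 0.133) and 0.35 for Tas2r105 (adjusted p = 0.168), while Tas2r109 and Tas1r1 still passed. That setting also adds a constant of 50 to every intensity. The processed intensity of Tas2r117 was 22.9, 12.0 and 6.87 in Cdx1+/+ and 77.2, 38.7 and 41.8 in Cdx1-/- mTEC. A constant of that size narrows folds at such intensities.

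Tas2r113 (chr6:132843899-132843958, plus strand) was the other bitter receptor detected on every mTEC array. Its levels were −3.39, −2.96 and −3.34 in Cdx1+/+ and −3.01, −2.82 and −2.81 in Cdx1-/- cells, which overlap. The difference of 0.35 (SE 0.14) did not pass (limma, adjusted p = 0.139).

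The trace amine receptors showed no genotype difference that passed. Taar5, the trimethylamine receptor (chr10:23691395-23691454, plus strand), read −2.96, −3.71 and −3.19 in Cdx1+/+ and −3.24, −2.90 and −3.09 in Cdx1-/- mTEC. The genotypes overlapped, and the difference was 0.21 (SE 0.20; limma, adjusted p = 0.514). Taar7d (chr10:23748045-23748104, plus strand) was detected on Cdx1+/+ replicates 1 and 3, at −5.02 and −3.82, and was −5.61 on the other Cdx1+/+ array. It was not detected on the Cdx1-/- arrays, at −5.48, −5.84 and −5.14, and the difference of −0.67 (SE 0.44) did not pass (limma, adjusted p = 0.350).

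Several receptors, described here after their values were seen where no naming rule gave them, were detected on 1 or 2 arrays and could not be tested. Taar6 read −2.60 on Cdx1-/- mTEC replicate 1 and between −7.55 and −6.94 on the other 5 mTEC arrays, where its signal was a substitute value. Tas2r135 had the same pattern, with −3.24 on that array and −7.38 to −6.79 on the other 5. That array alone of the 6 lay on slide 2, and the part of the slide in these values was not tested. Tas2r115 was detected only on Cdx1+/+ replicate 2, at −3.83, and was −6.33 to −4.67 on the other mTEC arrays. Taar8a was detected only on Cdx1+/+ replicate 3, at −4.97, by 1 of its 2 probes; the other probe had a substitute value on all 8 arrays. Tas2r138, the mouse counterpart of the human receptor for phenylthiocarbamide, was detected on replicate 1 of each genotype, at −4.90 in Cdx1+/+ and −4.21 in Cdx1-/- cells.

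**Figure D3:**
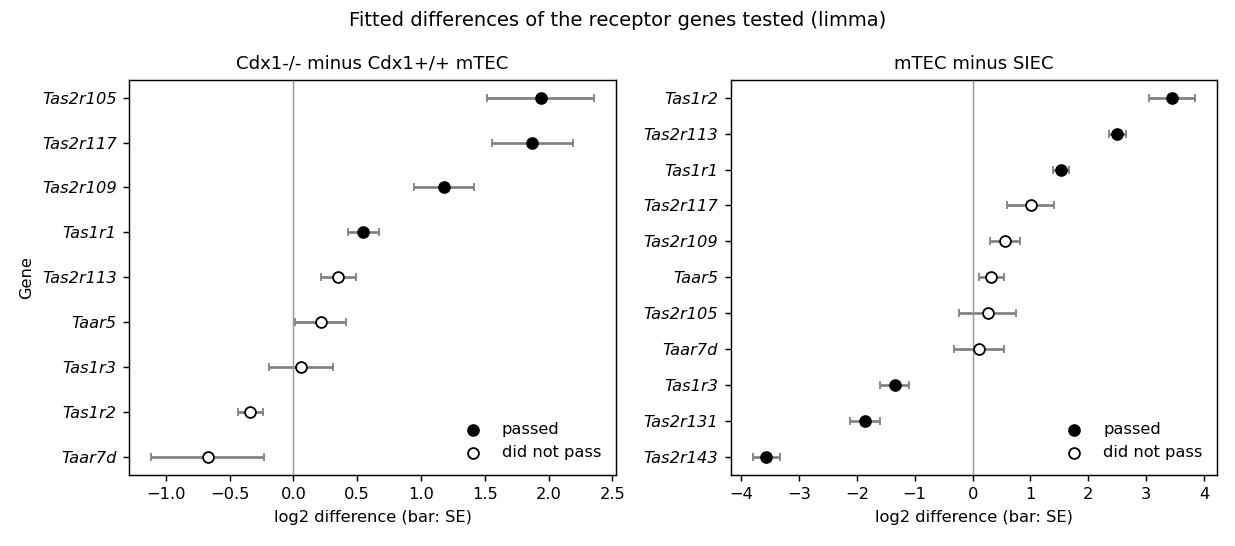
Fitted log2 differences of the receptor genes tested (x axis; bars: SE; filled: passed limma at an adjusted p of 0.05; open: did not pass), for Cdx1-/- minus Cdx1+/+ mTEC on the left and mTEC minus SIEC on the right. On the left 4 of 9 genes pass and all 4 are higher, beside 6.28% called higher and 6.61% lower over all genes tested. On the right 3 are higher and 3 lower of 11, beside 34.3% and 49.3%. Tas2r117, Tas2r105 and Taar7d on the left, and most genes on the right, were tested only through the group where their level was higher. Nothing is therefore read from these counts against the all-gene shares.

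The members lie mostly in 3 clusters, joining probes no more than 2 Mb apart. The 14 Taar genes form 1 cluster at chr10:23641143-23828353 (mm9), of which 4 were detected. A group of 8 bitter receptor genes, from Tas2r137 to Tas2r126, lie at chr6:40442149-42385413, with 3 detected (Tas2r135, Tas2r138 and Tas2r143). The largest cluster, from Tas2r130 to Tas2r140 at chr6:131579917-133005233, has 24 bitter receptor genes, with 6 detected. The 3 Tas1r genes are apart on chromosome 4, and Tas2r118, Tas2r119 and Tas2r134 stand alone with no detection.

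All 3 bitter receptor genes called higher lie in the largest cluster, which also holds Tas2r113, the only other Tas2r gene tested between genotypes. Tas2r117 and Tas2r105 were undetected in Cdx1+/+ mTEC and entered the test only through the Cdx1-/- arrays, so no summary of the 4 is set against their neighbours. Of 18 other genes tested within the cluster or 500 kb of it, 3 rose and none fell, with a median of 0.04. These 3 were A630073D07Rik (1.31, SE 0.17; limma, adjusted p = 0.00814), Ybx3, a cold shock domain protein gene (0.50), and Smim10l1 (0.40). Around the Taar cluster 1 of 8 neighbours rose (Stx7, a syntaxin gene, by 0.37) and none fell. Around the other chromosome 6 cluster 7 of 55 neighbours rose and 3 fell, Mgam, the brush border maltase-glucoamylase gene, by 0.43. Beside these counts, 6.28% of all genes tested were called higher and 6.61% lower, with an all-gene median of 0.0033.

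**Figure D4:**
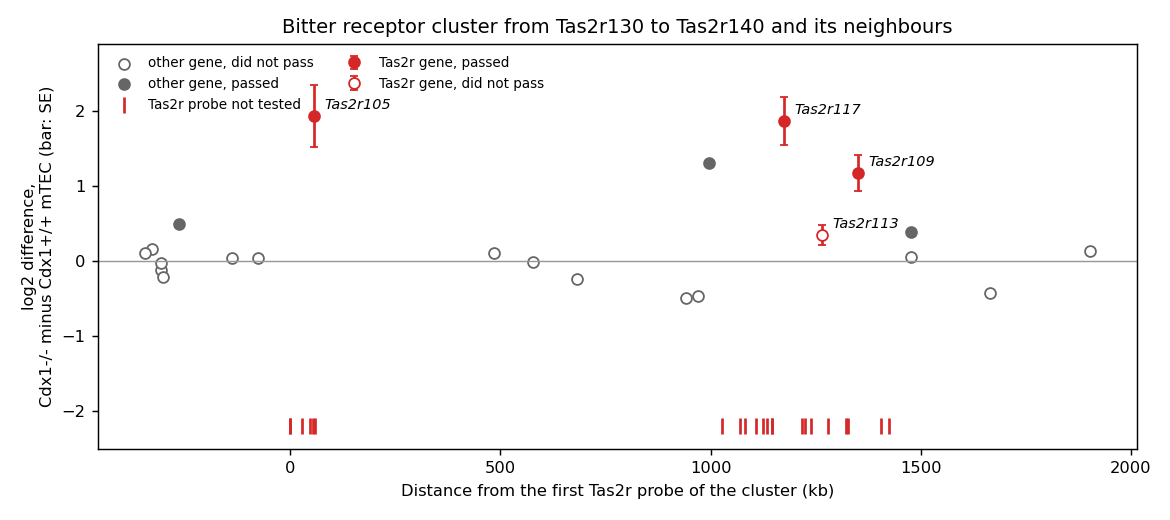
Log2 difference between Cdx1-/- and Cdx1+/+ mTEC (y axis; bars: SE) along the largest bitter receptor cluster (x axis: distance in kb from its first Tas2r probe). Tas2r105, Tas2r117 and Tas2r109 (filled red) lie at 1.94, 1.87 and 1.18, the first pair fitted against undetected Cdx1+/+ values; the other genes are grey, and ticks at the bottom mark the Tas2r probes not tested.

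Upstream sequence was taken for 45 member genes from RefSeq (GRCm38.p6), as windows of 300 bases from 250 before to 50 after the annotated start. In 40 of the 45 the annotated start is an ATG, so most of these windows lie before a coding start and need not hold the transcription start. They were searched on both strands for ATGCAAAT, the octamer that POU-domain factors such as the taste and tuft cell factor Pou2f3 bind, and for CAATAAA, a form of the caudal-type site. CAATAAA was in 3 of 45 windows (6.67%) and in 4.60% of all 32851 windows of that length. The octamer was in 7 of 45 (15.6%) and in 1.74% of all windows. Of the 7, 6 belong to the 11 Tas2r genes outside the largest cluster, 1 to its 20 with a window, and none to the 11 Taar or 3 Tas1r genes.

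The 7 octamers are shown with up to 20 bases on each side, on the strand of the gene, with the octamer in capitals.
Tas2r118: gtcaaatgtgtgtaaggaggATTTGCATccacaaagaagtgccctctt
Tas2r137: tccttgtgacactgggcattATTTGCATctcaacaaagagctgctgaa
Tas2r108: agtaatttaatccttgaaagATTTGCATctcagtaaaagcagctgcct
Tas2r144: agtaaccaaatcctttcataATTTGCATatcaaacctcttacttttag
Tas2r135: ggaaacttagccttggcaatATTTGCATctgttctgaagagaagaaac
Tas2r126: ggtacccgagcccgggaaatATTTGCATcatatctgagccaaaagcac
Tas2r107: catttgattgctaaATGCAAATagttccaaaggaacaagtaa
In 6 of them the octamer has the same orientation, ATTTGCAT on the strand of the gene, and lies 116 to 186 bases before the ATG. In Tas2r107 it runs the other way. On the plus strand of GRCm38.p6 the stretches lie at chr6:40491026-40491073 for Tas2r137, chr6:40493426-40493473 for Tas2r108, chr6:42215151-42215198 for Tas2r144, chr6:42405366-42405413 for Tas2r135 and chr6:42434321-42434368 for Tas2r126. On the minus strand they lie at chr6:23970157-23970204 for Tas2r118 and chr6:131660358-131660399 for Tas2r107. Of the 7 genes, Tas2r135 was detected, on 1 array. The paralogs share ancestry, so the matches are not independent, and a match is not a measured site.

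Of the genes called higher in the largest cluster, Tas2r105 (chr6:131687414-131687713) and Tas2r109 (chr6:132980916-132981215, both GRCm38.p6, minus strand) have a window. These windows are shown whole because they hold neither motif.
Tas2r105: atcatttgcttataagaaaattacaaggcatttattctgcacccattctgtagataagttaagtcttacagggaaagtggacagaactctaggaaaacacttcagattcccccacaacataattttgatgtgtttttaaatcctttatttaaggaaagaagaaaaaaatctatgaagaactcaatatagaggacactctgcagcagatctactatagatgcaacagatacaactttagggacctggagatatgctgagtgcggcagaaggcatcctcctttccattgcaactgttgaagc
Tas2r109: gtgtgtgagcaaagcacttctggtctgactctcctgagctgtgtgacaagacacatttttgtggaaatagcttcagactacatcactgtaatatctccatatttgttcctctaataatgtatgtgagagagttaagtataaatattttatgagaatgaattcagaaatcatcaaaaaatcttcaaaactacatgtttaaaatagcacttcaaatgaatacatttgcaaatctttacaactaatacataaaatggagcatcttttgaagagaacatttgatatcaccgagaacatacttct

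Genes of the taste cascade were examined beside the receptors. Of 24 listed, 21 were tested between the mTEC genotypes. Of these, 4 were higher, 2 were lower and 15 did not pass, beside 6.28% called higher and 6.61% lower among all genes. The median difference of the 21 was 0.12, against 0.0033 over all genes. Gnat3, the gustducin alpha subunit, read −2.11, −2.87 and −2.72 in Cdx1+/+ and −1.37, −1.65 and −1.49 in Cdx1-/- mTEC, a rise of 1.06 (SE 0.20; limma, adjusted p = 0.0227). Gnb3, its beta subunit partner, rose by 0.96 (SE 0.16) and Trpm5, the cation channel of the cascade, by 0.83 (SE 0.14). Rgs21, a taste cell regulator of G protein signalling, was detected on no Cdx1+/+ array and was at least 1.47-fold higher in Cdx1-/- cells. Scnn1b, a subunit of the epithelial sodium channel, fell by 0.98 and P2rx3, an ATP receptor of taste nerves, by 0.61. Plcb2, the phospholipase of the cascade, differed by 0.81 (SE 0.29) and did not pass (limma, adjusted p = 0.114).

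Tuft cell markers moved in the same mTEC arrays. Beside 6.28% called higher and 6.61% lower among all genes, 10 of 17 listed markers, which include Gnat3 and Trpm5, were higher in Cdx1-/- mTEC. None of the 17 was lower, and the median difference was 0.57. Their summed level, as a multiple of the 75th percentile signal, was 24.5 to 29.2 on the Cdx1+/+ arrays, 34.4 to 38.9 on the Cdx1-/- arrays, and 20.8 and 47.2 on the SIEC arrays. All 17 were detected on every mTEC array. The part of tuft cells in the receptor differences was not tested. Markers of other cells differed as well: 8 of 12 intestinal epithelium markers fell and none rose, with sums of 71.8 to 76.97 in Cdx1+/+ and 57.2 to 64.2 in Cdx1-/- mTEC. Of 5 B cell markers 1 rose and 1 fell (sums 9.52 to 10.66 against 12.2 to 13.8). Of 6 dendritic cell and macrophage markers Lyz2 rose by 0.93 (limma, adjusted p = 0.00394), Mrc1 fell by 1.43 (adjusted p = 0.00198) and 4 did not pass, with sums of 22.7 to 24.4 against 24.8 to 27.1. Among 8 thymocyte markers Ptcra fell by 0.49, with sums of 12.2 to 18.2 against 11.9 to 15.4. Among 3 mesenchymal markers tested Pdgfrb fell by 0.79. None of the 5 cortical thymic epithelium markers passed. Their sums, 139.5 to 179.5 against 187.8 to 252.8, are mainly Ccl25, which read 6.97 to 7.28 against 7.43 to 7.86, while Prss16 differed by 0.16 and Foxn1 by 0.0011. The sort kept Epcam+ UEA1+ CD45- cells, a gate that leaves out B cells, thymocytes, dendritic cells and macrophages. All 12 intestinal, 5 B cell and 6 dendritic cell and macrophage markers were nonetheless detected on every mTEC array, and the part of these cells in the receptor differences was not tested.

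For the trace amine receptors the olfactory cascade was taken, and its members that passed went both ways. Of 18 listed genes 16 were tested; 1 was higher, 2 were lower and 13 did not pass, beside 12.9% called among all genes. The median difference was −0.01. Ldb1, a LIM-domain cofactor, rose by 0.34. Gnal, the olfactory G protein alpha subunit, fell by 0.98 (SE 0.18; limma, adjusted p = 0.0186) and Ebf1, a transcription factor of olfactory neurons and B cells, by 0.63. Of 6 olfactory neuron markers 2 were higher and 1 was lower, and their sum was 28.8 to 32.6 in Cdx1+/+ and 34.5 to 36.8 in Cdx1-/- mTEC.

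**Figure D5:**
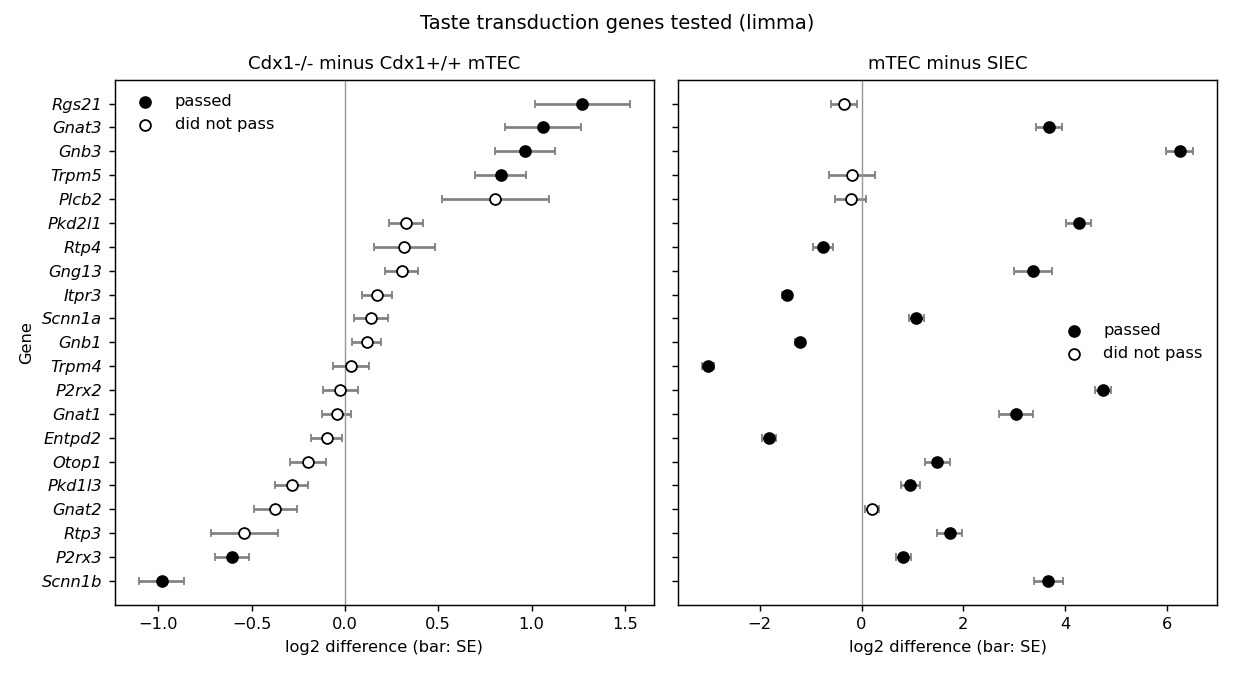
Fitted log2 differences of the 21 taste transduction genes tested (x axis; bars: SE; filled: passed limma at an adjusted p of 0.05), Cdx1-/- minus Cdx1+/+ mTEC on the left and mTEC minus SIEC on the right, in the same gene order. Rgs21, Gnat3, Gnb3 and Trpm5 pass as higher on the left, and Scnn1b and P2rx3 as lower.

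The comparison of mTEC with SIEC asks which receptors differed between these arrays of the tissues. Both SIEC arrays lay on slide 2, with Cdx1-/- mTEC replicate 1 alone, so tissue and slide are largely confounded. The fit used all 8 arrays with genotype as an added term, and 11 of the 52 genes could be tested. Of these, 3 were higher in mTEC (Tas1r1, Tas1r2 and Tas2r113), 3 were lower (Tas1r3, Tas2r131 and Tas2r143) and 5 did not pass. Over all 25273 genes tested 34.3% were called higher in mTEC and 49.3% lower, 83.6% in all, and the all-gene median was −0.43. The arrays of the tissues did not overlap for 6 of the 11 receptors and for 82.1% of all genes, and 62.9% of all genes tested were called with a fitted difference of at least 2-fold. Of the 6 receptors called, 5 reached 2-fold by their measured or bounded fold, and Tas2r113 is bounded at 1.66-fold. Tas2r131 and Tas2r143 entered the test only through SIEC, and Tas1r1, Tas1r2, Tas2r105, Tas2r113, Tas2r117 and Taar7d only through mTEC, so nothing is read from these counts against that background. Scaling moved the splits: with normexp 1 receptor was higher and 7 lower, with quantile normalisation 5 and 3, and the share of higher calls among all calls went from 41.1% to 29.4% with normexp. The 5 receptors that did not pass were all higher in mTEC in the fit and all lower with normexp. The 75th percentile intensity was 321 and 257 on the SIEC arrays and 458 to 888 on the mTEC arrays. The constant of 50 that normexp adds therefore weighs more on the SIEC levels.

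In the fit the Tas1r subunits went in different directions between the tissues. Tas1r2 read −6.00 and −4.25 in SIEC and was detected on neither array, against −1.99 to −1.44 in mTEC, at least 4.32-fold higher in mTEC (limma, adjusted p = 9.06e-05). With normexp the log2 difference of Tas1r2 was 0.82, smaller than that bound, and still passed (adjusted p = 0.00109). Tas1r1 read −4.09 and −3.19 in SIEC, again not detected, and its bound was 2.80-fold higher in mTEC (limma, adjusted p = 2.58e-05). On the SIEC array labelled Cdx1-/- its own value exceeds the lowest detected signal of −3.56. The bound is therefore close to the fitted 2.87-fold and is not a firm lower limit. With normexp the log2 difference of Tas1r1 was 0.21, smaller than that bound, and did not pass (limma, adjusted p = 0.0862). Tas1r3 was detected in both tissues and went the other way, at −2.52 and −2.51 in SIEC and −4.43 to −3.43 in mTEC, a difference of −1.35 (SE 0.25, 2.55-fold; limma, adjusted p = 0.00123). Before scaling, its intensity was 55.8 and 45.1 in SIEC and 30.2 to 52.5 in mTEC, which overlap. With no filter Tas2r119 and Tas2r120, substitute values on all 8 arrays, differed by −1.22 and −1.31. The part of the scaling in the Tas1r3 difference was not tested.

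Among bitter receptors, Tas2r143 (chr6:42351046-42351105, plus strand) was detected on both SIEC arrays, at −2.94 and −2.84, and on no mTEC array, at −6.80 to −5.90. It was at least 4.09-fold lower in mTEC (limma, adjusted p = 3.14e-06), and with normexp the log2 difference shrank to −1.45 and still passed (adjusted p = 0.000138). Tas2r131 (chr6:132906930-132906989, minus strand) was detected only on the SIEC array labelled Cdx1+/+, at −3.30. It read −4.31 on the other and −6.11 to −5.31 in mTEC, with a bound of 2.17-fold lower in mTEC (limma, adjusted p = 0.000264). That bound averages in the SIEC array without detection. Before scaling, its intensity was 32.6 and 13.0 in SIEC and 9.79 to 17.1 in mTEC, which overlap. With normexp the log2 difference of Tas2r131 was −1.08 (limma, adjusted p = 0.000381). The part of the scaling in the Tas2r131 difference was not tested. Tas2r113 was −5.64 and −5.46 in SIEC and not detected, at least 1.66-fold higher in mTEC (limma, adjusted p = 1.63e-06), but its fitted difference was −0.04 with normexp. Tas2r109 differed by 0.56 (SE 0.26) and did not pass (limma, adjusted p = 0.0793). Tas2r117 and Tas2r105 were not detected in SIEC, and their differences of 1.001 and 0.26 did not pass (limma, adjusted p = 0.0513 and 0.638). With the replicate numbers as a block, Tas2r117 differed by 1.21 and passed (limma, adjusted p = 0.0247). The numbers were taken to pair the mTEC samples only, and no pairing of the SIEC pools with them is shown.

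No tissue difference of a trace amine receptor passed. Taar5 was detected on the SIEC array labelled Cdx1+/+, at −3.38, and read −3.63 on the other, within the range of the mTEC arrays. Its difference was 0.33 (SE 0.22; limma, adjusted p = 0.192), and that of Taar7d, not detected in SIEC, was 0.11 (adjusted p = 0.814). The lowest detected signal lay at −4.02 and −3.56 on the SIEC arrays and between −5.35 and −4.65 on the mTEC arrays, so the SIEC arrays could detect less of a dim receptor.

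The cascade genes were compared between the tissues as well. Of the 21 taste genes tested, 12 were higher in mTEC, 5 were lower and the other 4 did not pass. Over all genes tested 34.3% were called higher and 49.3% lower, 83.6% in all, so the number called is near that share. The median difference of the taste genes was 0.96, against −0.43 over all genes. Gnb3 was at least 57.4-fold higher in mTEC and Gnat3 at least 3.38-fold, both undetected in SIEC. Trpm4, a cation channel related to Trpm5, was lower in mTEC by a log2 difference of −3.01, and Itpr3, the calcium release channel of the cascade, by −1.47. Trpm5 itself differed by −0.19 and Plcb2 by −0.21, and neither passed (limma, adjusted p = 0.703 and 0.537). Of the 16 olfactory genes tested, 12 were higher in mTEC and 2 lower, a number called that is also near the all-gene share. Cngb1, a subunit of the olfactory cyclic nucleotide-gated channel, was at least 132-fold higher, and Omp, the olfactory marker protein gene, was higher by 5.06.

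In SIEC the 2 labelled genotypes have 1 array each, so differences carry no test. On either array 5 receptors were detected. Tas1r3 differed by 0.01, Tas2r143 by 0.10, Tas2r109 by 0.50, Taar5 by −0.25 and Tas2r131 by −1.01 (Cdx1-/- minus Cdx1+/+ by label). Only Tas2r131 reached a 2-fold difference, as did 9.28% of the 26152 probes detected on either array. Tas2r131 was not detected on the array labelled Cdx1-/-, where it read −4.31 and the lowest detected signal was −3.56. Its difference therefore rests on background. The median was 0.015 over the 5 and −0.04 over all of those probes.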

How the data were processed

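The members and gene lists were chosen with earlier results of these data known. The authors deposited linear intensity values per spot, made with Agilent Feature Extraction 10.7.3.1 per the file headers, background-subtracted and detrended within each array. The authors' deposited table is on a linear scale and equals that intensity times 1 constant per array, with a median of 1. Probe positions are those of the deposited files (mm9).

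Here, log2 of the processed intensity minus the array's 75th percentile was taken over 55669 non-control probes, leaving out outlier spots, and 12 probes with only such spots on an array were dropped. Gene names came through a RefSeq table (GRCm38.p6) by accession for 27506 probes and by symbol for 3549, and from the files for 24614. A gene was represented by its brightest probe, which had to be detected on 2 or more arrays in any one group (or on the only array of a group of 1). The fits used limma 3.58.1 (lmFit, eBayes) in R 4.3.3, two-sided, adjusted by Benjamini-Hochberg over all genes, threshold 0.05. On simulated data this fit recovered 195 of 200 changed genes with 16 false calls among 24338. The simulated shift was larger than the genotype difference of every receptor tested except Tas2r117 and Tas2r105, with independent normal noise and no slide effect. The recovery therefore does not give the power for such differences. Detection counts were compared by exact permutation over arrays. Where a probe was detected on no array of a group, "at least" folds compare the mean of the group with signal to a floor. On each array the floor is the probe's own value or the lowest detected value, whichever is higher. Such folds hold under the main scaling only and carry no allowance for error. The array number limits the precision, and p-values measure the spread between these pools.

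Replicate numbers from the titles were taken to pair the mTEC samples. Deviations from the group means correlated by 0.295, 0.135 and 0.158 for same-numbered arrays and by −0.205 to 0.0323 for the others. The main fits did not use this pairing, which entered only as the replicate block among the alternatives. Named genes were those that passed either fit, every Tas1r and Taar gene detected on any array, the 6 members of largest difference per fit, genes detected in both tissues or with disagreeing probes, SIEC-detected members, and at most 8 passing genes of smallest p per list. Alternatives were background correction (normexp with an offset of 50), scaling, the dim-probe filter, slide, pairing and leaving out each array. A test of whether the genotype difference itself differed between tissues was added after seeing the data. Genes outside that rule (Tas2r115, Tas2r135, Tas2r138, Plcb2 and untested or unpassed cascade genes) were named after their values were seen.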

Additional observations from a re-analysis of the deposited data

Results flagged for a closer look

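For Tas1r2, the sweet receptor subunit, the fitted genotype difference was −0.34 in mTEC and 1.76 between the SIEC arrays by label, which are −2.10 apart. The term that compares them was added after seeing the data, and it passed the threshold for 14.4% of the 25273 genes tested, Tas1r2 among them. It has 1 SIEC array per label, so its spread comes from the mTEC arrays alone. Tas1r2 was not well above background on either SIEC array, where it read −6.00 (a substitute value) and −4.25. The SIEC side is therefore not a measured level, and no difference between the tissues is drawn from it.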

How the results depend on the processing

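The 4 receptors called between mTEC genotypes became 2 with normexp, 1 with the slide as a block (Tas2r117) and 2 within slide 1, which is the fit without Cdx1-/- replicate 1. Leaving out each array gave 1 to 4, with 1 without Cdx1+/+ replicate 2 and 1 without Cdx1+/+ replicate 3. Calls over all genes fell from 3137 to 1974 with normexp, 1779 with the slide block, 1322 with no filter and 1245 to 1845 on leaving out an array. With no filter 3 receptors passed, among them Taar4 (−1.60) and Tas2r126 (1.91), neither detected on any array. The replicate block, which uses the pairing of the mTEC samples, left the genotype count at 4. In the tissue fit, where no pairing of the SIEC pools is shown, it raised the count from 6 to 7 by adding Tas2r117 (adjusted p = 0.0247, limma). No other receptor call changed. The tissue count was 35 with no filter, and 6 to 7 on leaving out an array. Tas2r113 between tissues was reversed with normexp, at −0.0381. The all-gene tissue median was −0.43, and −0.55 with normexp, −0.13 with quantile normalisation and −0.90 with median scaling. The genotype difference in detected probes was −0.667 with the positive-signal flag, −0.167 within slide 1, and −0.167 to 1.83 on leaving out an array. The tissue difference was 0.00898 percentage points as a share of detected probes, 7 within slide 2 (no test), and 3.17 to 5.17 on leaving out an array, with exact permutation p of 0.143 and 0.286 without a SIEC array, where no p can pass the threshold. The 9 cascade genes called between genotypes were 5 with no filter and 5 to 9 on leaving out an array, 5 without Cdx1-/- replicate 3. The SIEC median was −0.20 in the authors' deposited table. Joining probes within 500 kb gave 5 clusters in place of 3. Signal near background limits 36 of the 52 genes.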

Other observations

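Some receptors detected on no array had different dim signals in the mTEC genotypes. Taar4, a receptor for phenylethylamine, read −5.45, −5.27 and −5.56 in Cdx1+/+ and −7.09, −6.96 and −7.02 in Cdx1-/- mTEC. Its signal was significantly above background by the weaker flag on all 3 Cdx1+/+ arrays, and the 3 Cdx1-/- values are substitutes. Tas2r126 read −7.50, −6.42 and −6.99 in Cdx1+/+, where 1 value is a substitute, and −4.69, −4.95 and −5.53 in Cdx1-/- mTEC. Both genes were chosen after their values were seen, and values at background have no interpretable fold or test.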
